A study of Mus musculus with 48 samples.

Results

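The major urinary proteins (Mup) formed the subject here, as measured in caecum samples of mice after gavage with chicory flour decoction or with compounds of the chicory root. Members were chosen as every row of the caecum table whose gene name was Mup followed by a digit. There were 8 such genes, each with 1 probe (Mup1, Mup2, Mup4, Mup5, Mup17, Mup18, Mup19 and Mup20), of 3779 named genes in that table. The family was picked because its values differed widely between caecum arrays and because its proteins are made in liver. Its caecum levels are therefore a description with no test.

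The methods name male BALB/cOlaHsd animals. The mice were 8 weeks old at the start and received 500 µL of solution by gavage each day for 30 days beside standard chow. Chic mice (3 arrays) received an aqueous decoction of chicory root flour that corresponded to 30 mg of root powder per day. Fru mice (3) received fructose, CGA mice (3) chlorogenic acids and STL mice (3) sesquiterpene lactones, compounds of the same root. Ctr2 (2 mice) ran beside CGA and STL and Ctr1 (2 mice) beside Chic and Fru, in another period of time. The labels state water for both controls, while the methods give Ctr2 the dilute DMSO in which CGA and STL were dissolved. Each array held RNA of 1 animal. The tissue is labelled caecum, and the study's text speaks of a cut colon segment where the other sources say caecum.

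Mup genes encode small secreted lipocalins, barrel-shaped proteins that carry volatile pheromones. Hepatocytes make most of them, the blood carries them to the kidney and the mouse excretes them in urine, far more in males than in females, under pulsed growth hormone, STAT5 and androgen. Mup4 and Mup5 are also known from nasal, lacrimal or salivary tissue, and Mup20 encodes darcin, a male scent signal. The gut wall is not known as a main source of these proteins.

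The 8 genes lie on chromosome 4 of GRCm38.p6, within a cluster of 22 named Mup genes between positions 59956804 and 62150841. Many copies are near-identical, and some probes match more than 1 of them. The file's own match list gave the Mup1 probe 4 Mup genes (Mup1, Mup2, Mup19 and Mup22), the Mup17, Mup18 and Mup19 probes 3 each, and the Mup2 probe both Mup1 and Mup2. The Mup4, Mup5 and Mup20 probes each matched 1 gene. Values under the other 5 names may thus belong in part to a neighbour. RefSeq promoter sequences (GRCm38.p6) were matched for 5 of the 8 genes, and the 250 bases before the transcript start are shown for 3 of them because the family moved together across arrays. Mup19 had the brightest probe, Mup2 represents its near-copies and Mup4 was the most divergent. Capitals mark the motif TATATAA, searched as a form of the box that positions RNA polymerase II.
Mup19: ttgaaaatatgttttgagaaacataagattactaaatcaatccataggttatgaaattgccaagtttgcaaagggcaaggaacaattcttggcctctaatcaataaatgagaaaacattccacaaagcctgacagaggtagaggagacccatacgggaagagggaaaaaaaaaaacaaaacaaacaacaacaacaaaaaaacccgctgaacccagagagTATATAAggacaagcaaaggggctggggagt
Mup2: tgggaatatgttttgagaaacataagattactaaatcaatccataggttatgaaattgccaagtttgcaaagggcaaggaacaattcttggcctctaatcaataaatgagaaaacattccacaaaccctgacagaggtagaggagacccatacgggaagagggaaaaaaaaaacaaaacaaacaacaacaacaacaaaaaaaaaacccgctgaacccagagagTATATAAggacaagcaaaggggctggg
Mup4: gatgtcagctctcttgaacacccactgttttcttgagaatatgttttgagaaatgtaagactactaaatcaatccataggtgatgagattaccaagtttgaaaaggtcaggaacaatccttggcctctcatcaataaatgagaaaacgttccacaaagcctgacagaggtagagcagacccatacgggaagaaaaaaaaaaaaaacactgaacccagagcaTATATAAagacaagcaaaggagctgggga
Each runs 5′ to 3′ on the minus strand, at chr4:61782225-61782474 for Mup19, chr4:60139857-60140106 for Mup2 and chr4:59960668-59960917 for Mup4. All 5 matched promoters held TATATAA once, with its first base 25 to 31 bases before the start, whereas 3.04% of 32851 promoter windows of the same length held it on either strand. No match to TTCNNNGAA, the STAT5 motif, was found in the 5 windows, and 7.02% of all windows held one. Among Mup2, Mup17, Mup18 and Mup19 the aligned windows were 89.9% to 95.3% identical. Mup4 was 69.1% to 74.5% identical to them.

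The 16 caecum arrays had median intensities between 186 and 1687. Fru 2 was the dimmest, and 4 arrays lay more than 0.5 on the log2 scale below the median array. Ctr1 2 held no value under 300, so dim probes there sat near that floor. The files carry no detection call, so low intensities cannot be told apart from background. Over the 33 markers of caecum and colon epithelium, 27 were measured, with a median at the 90.8th percentile of caecum rows. The 18 measured of 92 liver-made plasma proteins had their median at the 27.9th percentile. In a bulk sample, fewer cells of a type and less RNA per cell cannot be told apart.

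Mup intensities fell into a bright and a dim set of arrays that cut across the diets. Mup19, one of the urinary Mups, had 8131, 4143 and 290 in Chic mice, 4422, 192 and 172 in Fru mice, 127, 143 and 206 in CGA mice and 201, 206 and 190 in STL mice, against 2565 and 72 in Ctr2 mice and 14320 and 5077 in Ctr1 mice. Bright values thus stood in Chic 1, Chic 2, Fru 1, Ctr2 1 and both Ctr1 arrays, and the other 10 arrays were dim. The probe for darcin, Mup20, had 2161, 949 and 36 in Chic, 1197, 35 and 48 in Fru, 8, 14 and 26 in CGA and 34, 30 and 18 in STL, against 604 and 9 in Ctr2 and 3461 and 1008 in Ctr1. The same 6 arrays were bright, and within Chic, Fru and Ctr2 bright and dim mice stood side by side.

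Mup2 had 1323, 543 and 56 in Chic, 546, 44 and 22 in Fru, 24, 20 and 26 in CGA and 28, 28 and 36 in STL, against 338 and 13 in Ctr2 and 2193 and 810 in Ctr1. Mup1 had 7309, 3317 and 126 in Chic, 3636, 107 and 139 in Fru, 36, 92 and 103 in CGA and 125, 110 and 73 in STL, against 2045 and 33 in Ctr2 and 10675 and 3341 in Ctr1. Both split the arrays as Mup19 and Mup20 did. Mup4, known also from nasal and lacrimal tissue, had 3699, 2010 and 124 in Chic, 1849, 73 and 78 in Fru, 49, 33 and 93 in CGA and 54, 60 and 74 in STL, against 1152 and 25 in Ctr2 and 5633 and 2566 in Ctr1. Mup5, known from salivary tissue and the dimmest probe, had 383, 144 and 20 in Chic, 180, 22 and 4 in Fru, 4, 2 and 11 in CGA and 2, 3 and 13 in STL, against 110 and 0 in Ctr2 and 637 and 349 in Ctr1. For Mup4 and Mup5 too the same 6 arrays were the highest as deposited, but for Mup5 the values of 110 in Ctr2 1 and 144 in Chic 2 exceeded only 0.067% and 0.117% of rows on their arrays, and 349 in Ctr1 2 lay near that array's floor of 300. Mup17 ranged from 35 to 6270 and Mup18 from 56 to 12070, both lowest in Ctr2 2 and highest in Ctr1 1.

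**Figure D1:**
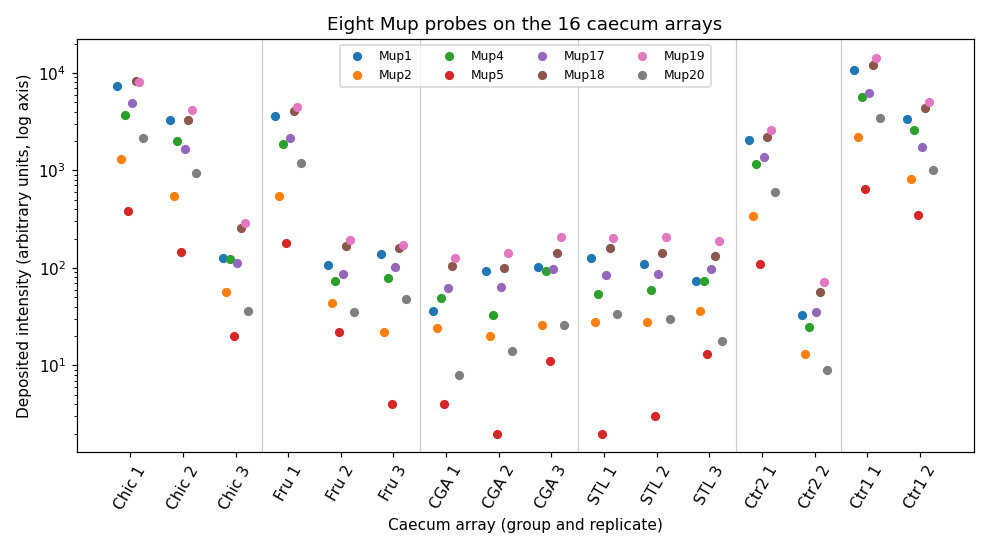
Deposited intensity (arbitrary units, log axis) of the 8 Mup probes on each caecum array, ordered by group and replicate. Each point is 1 probe on 1 array, Mup5 in Ctr2 2 (listed at 0) is left out, and the same 6 arrays are the highest for all 8 probes, with Mup19 between 2565 and 14320 there and between 72 and 290 elsewhere.

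The gap between the 2 sets was at least 5-fold for every probe in deposited intensity, which is not scaled for how bright each array was. There, the sixth highest array exceeded the seventh by 5-fold for Mup5, 14.7-fold for Mup1 and a median of 9.07-fold over the 8 probes. For all 8 probes the same 6 arrays were the highest. The proportions among bright arrays varied less between probes in some pairs of arrays than in others: Ctr1 1 exceeded Ctr2 1 by 4.58-fold (Mup17) to 6.49-fold (Mup2), and Chic 1 exceeded Ctr2 1 by 3.17-fold (Mup19) to 3.91-fold (Mup2), whereas Ctr1 1 exceeded Ctr1 2 by 1.83-fold (Mup5) to 3.59-fold (Mup17). Fru 1 stood above Ctr1 2 for Mup1, Mup17 and Mup20 and below it for the other 5. Over mice of 1 diet, Chic 1 exceeded Chic 3 by 19.15-fold (Mup5) to 60.03-fold (Mup20), Fru 1 exceeded Fru 3 by 20.7-fold to 45.0-fold, and Ctr2 1 exceeded Ctr2 2 by 26.0-fold to 67.1-fold, without Mup5. These folds take dim intensities at face value. Across the 16 arrays, the 28 pairs of Mup rows had Pearson's r between 0.780 and 0.994 (median 0.976) on normalized log2 values, as a description over arrays that fall into 2 sets and for probes that share targets. Within the 6 bright arrays alone, r of log2 intensities as deposited lay between 0.853 and 0.997 (median 0.970).

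The clean split held only for deposited intensities. Quantile normalization, which gives every array the same distribution, kept the same 6 arrays highest for most members but placed Fru 2 near them. After it, the 6 highest arrays were the same 6 for Mup1, Mup4, Mup17, Mup18, Mup19 and Mup20. Fru 2 came seventh for each of them, closer to the sixth array than to the eighth. For Mup19 it stood at 9.88, between 10.87 in Ctr2 1 and 8.61 in Chic 3. Normalized values thus did not set Fru 2 apart from the bright arrays as deposited intensities did. Relative to the median of its own array, the mean log2 Mup intensity was -1.36 in Fru 2, against -0.52 in Ctr2 1 and -2.87 in Chic 3. For Mup2, Fru 2 (8.14 on the log2 scale) stood above Ctr2 1 (7.95). For Mup5, Fru 2 (7.06) and Chic 3 (6.15) stood above Chic 2 (4.12) and Ctr2 1 (3.78). In the dim array Fru 2 the Mup19 intensity was 192, close to 201 in STL 1, and the normalized log2 value was 9.88, against 7.57 in STL 1. As a place among all rows of its array, Mup19 stood above 92.8%, 80.6% and 13.4% of rows in Chic, above 77.4%, 50.9% and 0.585% in Fru, above 1.42%, 5.38% and 0.785% in CGA and above 1.77%, 2.20% and 11.6% in STL, against 71.4% and 0.718% in Ctr2 and 96.2% and 89.4% in Ctr1.

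The mean of the 8 normalized log2 values summarised each array, without Mup5 in Ctr2 2, where its value of 0 was set missing. It averaged 9.43 ± 2.03 in Chic, 7.87 ± 2.38 in Fru, 6.003 ± 0.98 in CGA and 5.98 ± 0.56 in STL (SD, n = 3 each), against 7.58 ± 2.05 in Ctr2 and 11.3 ± 0.632 in Ctr1 (SD, n = 2 each). Chic arrays ran from 7.35 to 11.4, Fru from 5.19 to 9.74, CGA from 4.91 to 6.82, STL from 5.43 to 6.56, Ctr2 from 6.13 to 9.03 and Ctr1 from 10.9 to 11.8. From the highest level down, the order was Ctr1, Chic, Fru, Ctr2, CGA, STL. No neighbours in that order differed by more than the larger of their SDs: the largest step, 1.89 between Chic and Ctr1, compared with an SD of 2.03.

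Set against its control, each diet had lower mean Mup levels, with 1 exception. Between Chic and Ctr1, Mup20 averaged 8.94 ± 2.12 and 10.7 ± 0.808 (log2, SD, n = 3 and 2), a difference of -1.72 (SE 1.30). Over the 8 members the median difference was -1.86, beside 0.03 over all genes. That median was -0.65 without Chic 3 and -2.80 without Chic 1, and the Mup20 difference was -0.59 and -2.69. Chic 1 (11.4) lay between both Ctr1 arrays in the mean of the 8 values (10.9 and 11.8) and Chic 3 (7.35) far below them, so the groups overlapped. Across all genes, limma with Benjamini-Hochberg adjustment called 0 genes (0%) of 3779 between Chic and Ctr1 at an adjusted p under 0.05, with 104 genes at an unadjusted p under 0.05 and 40 calls without Ctr1 1. No Mup gene was among the calls, and nothing is read from that for genes chosen on these values.

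Between Fru and Ctr1 the differences were larger. Mup19 averaged 9.20 ± 2.49 in Fru and 12.9 ± 0.712 in Ctr1 (log2, SD, n = 3 and 2), a difference of -3.68 (SE 1.44), and Mup5 had the smallest one, -3.05 (SE 1.24). The median over the 8 was -3.49, beside 0.01 over all genes, and -2.15 without Fru 3. Without that array the 8 differences lay between -2.34 and -1.67 (Mup5), and without Fru 1 Mup19 differed by -4.72. All 3 Fru arrays lay below both Ctr1 arrays for 8 of 8 Mup genes, a pattern that 7.75% of 3769 genes shared, and Fru 1 still had bright Mup intensities. Since the family was chosen on these arrays, nothing is read from that count. The fit called 1 gene (0.0265%), with 269 at an unadjusted p under 0.05. It was Gla, the lysosomal enzyme alpha-galactosidase A, named here after its values were seen (log2 difference 3.11, SE 0.411, adjusted p = 0.0126 in limma). The fit called 0 genes without Fru 3, on deposited values, with only the groups compared, with pooled controls and with the replicate block, and 43 without Ctr1 1.

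For CGA and STL the differences rested on 1 control mouse. Mup1 averaged 6.37 ± 1.35 in CGA and 8.41 ± 3.06 in Ctr2 (log2, SD, n = 3 and 2), a difference of -2.04 (SE 1.63). Without Ctr2 1, the bright control, the Mup1 difference was 0.13, and without Ctr2 2 it was -4.20. Mup4, Mup17, Mup18 and Mup19 likewise took the opposite sign without Ctr2 1, in CGA (0.11 to 0.93) and in STL (0.10 to 1.39), where Mup1 did so too (0.53). Mup20 averaged 4.92 ± 0.401 in STL and 7.14 ± 2.30 in Ctr2, a difference of -2.21 (SE 1.30), and -0.59 without Ctr2 1. The exception to the lower levels was Mup5 in CGA, at 0.04 (SE 1.57), where its value of 0 in Ctr2 2 was dropped and Ctr2 had 1 array. Median differences over the 8 were -1.69 for CGA and -1.54 for STL, beside 0.04 and 0.03 over all genes. CGA against Ctr2 gave 0 calls (0%) and 131 genes at an unadjusted p under 0.05, and STL against Ctr2 0 calls (0%) and 108 genes, by the same test. Without Ctr2 1 the calls numbered 22 for CGA and 20 for STL.

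The largest Mup differences stood between the controls themselves. Mup19 averaged 8.71 ± 3.06 in Ctr2 and 12.9 ± 0.712 in Ctr1 (log2, SD, n = 2 each), a difference of -4.17 (SE 1.58). The median over the 8 was -3.90, beside 0.05 over all genes. Mup19 differed by -6.33 without Ctr2 1 and by -2.0035 without Ctr2 2. Limma called 0 genes (0%) here, and 228 had an unadjusted p under 0.05. It called 38 without Ctr1 1 and 18 without Ctr2 1. With both controls pooled, Chic differed from control by 0.19 for Mup19 and by 0.04 for Mup20, and Fru by -1.59 and -1.53. Chic and Fru share the Ctr1 arrays, and CGA, STL and the control comparison share the Ctr2 arrays.

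**Figure D2:**
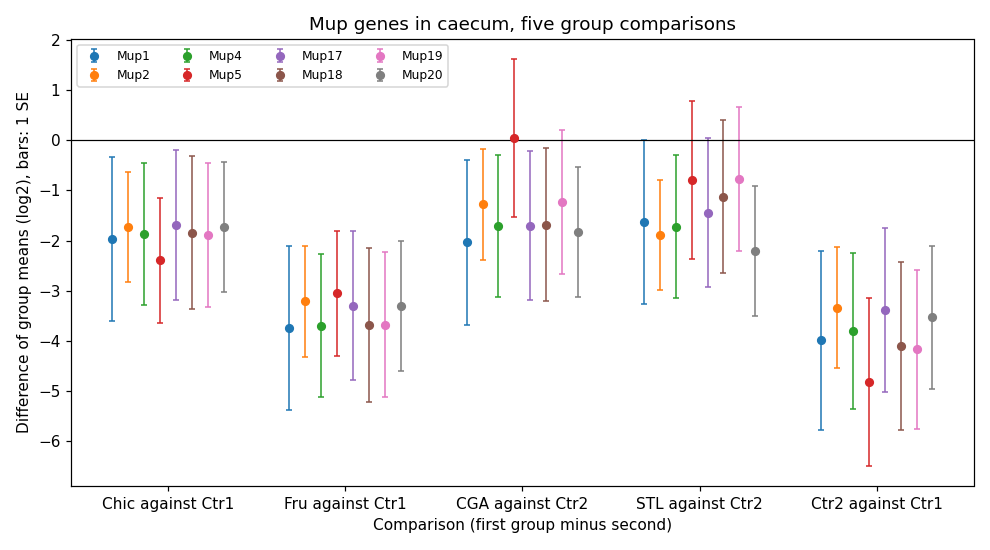
Difference between group means (first group minus second, normalized log2 values) for the 8 Mup genes in the 5 comparisons, with bars of 1 SE from the fit over all groups. Median differences are -1.86 for Chic, -3.49 for Fru, -1.69 for CGA, -1.54 for STL and -3.90 for Ctr2 against Ctr1.

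Among 3771 other named genes, those with the pattern most like the mean Mup level included liver-made plasma proteins and genes of other kinds. Likeness was Pearson's r with that mean over the 16 caecum arrays, given as a description because bright and dim arrays set it. Mup-ps16, a Mup pseudogene, came first (r = 0.935, over 15 arrays), then Serpina1c (0.930) and Serpina1a (0.928), copies of the plasma protease inhibitor alpha-1-antitrypsin, Alb (0.925), albumin, Serpina1e (0.918) and Ahsg (0.910), the plasma glycoprotein fetuin-A. Fam3b (0.884, over 15 arrays), a secreted cytokine-like protein of islets and gut, Psma4 (0.843), a proteasome subunit, Tmed9 (0.834), a cargo receptor between endoplasmic reticulum and Golgi, and Klk1b22 (0.833), a glandular kallikrein, completed the first 10. Their Spearman's rho ran from 0.741 (Psma4) to 0.931 (Mup-ps16). Within the 6 bright arrays alone, r was 0.955 for Alb, 0.976 for Serpina1c, 0.945 for Ahsg, 0.533 for Fam3b and 0.407 for Psma4. Within the other 10 it was 0.571 for Alb, 0.647 for Serpina1c and 0.906 for Ahsg. Copies of Serpina1 are near-identical, so their probes may share targets as the Mup probes do.

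Albumin was among the genes most like the Mups. Its intensity was 911, 268 and 12 in Chic, 459, 7 and 22 in Fru, 8, 7 and 18 in CGA and 15, 10 and 3 in STL, against 197 and 8 in Ctr2 and 1589 and 329 in Ctr1. Its 6 highest arrays were those with bright Mup probes, although in Ctr1 2 its 329 lay close to the floor of 300. In Fru 1, Chic 2 and Ctr2 1 it was among the dimmest rows, on arrays with medians of 1687, 1368 and 1277. Only in Ctr1 1 did it exceed its array's median (1339). Ahsg had 486, 239 and 26 in Chic, 264, 22 and 16 in Fru, 17, 4 and 19 in CGA and 16, 14 and 19 in STL, against 140 and 4 in Ctr2 and 840 and 428 in Ctr1. Apoa2, an apolipoprotein of high-density lipoprotein, had 475, 249 and 60 in Chic, 295, 37 and 46 in Fru, 72, 26 and 75 in CGA and 73, 45 and 40 in STL, against 164 and 38 in Ctr2 and 824 and 418 in Ctr1. As deposited, both were highest on the arrays where the Mups were bright, but in Fru 1, Chic 2 and Ctr2 1 they too were among the dimmest rows. After normalization that order did not hold: Ahsg stood at 5.86 in Chic 2 and 4.93 in Ctr2 1 on the log2 scale, below 7.06 in Fru 2 and 6.29 in Chic 3, and Apoa2 at 6.05 in Chic 2 and 5.59 in Ctr2 1, below 7.87 in Fru 2. Serpina1c had 2167, 1324 and 603 in Chic, 1822, 132 and 585 in Fru, 731, 204 and 666 in CGA and 620, 345 and 261 in STL, against 991 and 477 in Ctr2 and 3616 and 1872 in Ctr1. As deposited, its 6 highest arrays were the same, but over a narrower range and without a wide gap, with 991 in Ctr2 1 followed by 731 in CGA 1. The lowest value, 132, was in the dim array Fru 2. After normalization Serpina1c stood at 9.68 in Chic 3, above 9.50 in Ctr2 1, with 9.39 in Fru 2. A second Mup pseudogene row, described in the file as Mup pseudogene 13 and without a symbol, read 1016, 306 and 19 in Chic, 467, 20 and 15 in Fru, 2, 9 and 14 in CGA and 11, 16 and 9 in STL, against 236 and 2 in Ctr2 and 2037 and 528 in Ctr1.

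Most other liver products did not follow. Of 18 measured liver-made plasma proteins, 7 had r above 0.8 with the mean Mup level (Serpina1c, Serpina1a, Alb, Serpina1e, Ahsg, Rbp4 and Apoa2), with a list median of 0.223. Over all 3771 other genes, 12 had r above 0.8, and the median was -0.069. Apoa1 and Apob, apolipoproteins that the intestine makes too, had r of -0.032 and -0.044. Apoa1 read 89, 758 and 11 in Chic, 28, 13 and 173 in Fru, 4, 2 and 192 in CGA and 11, 167 and 157 in STL, against 140 and 366 in Ctr2 and 72 and 463 in Ctr1, so it was bright in Ctr2 2 where the Mups were dim and dim in Ctr1 1 where they were brightest. Trf, transferrin, had r = 0.174. None of 19 measured hepatocyte enzymes and transporters had r above 0.8 (median -0.076). Within the 6 bright arrays the r of these 19 ran from -0.874 (Slc27a2, a fatty acid transporter) to 0.915 (Cyp2e1, an ethanol-oxidising cytochrome P450), with a median of -0.056. The summed level of the plasma protein list on the normalized scale ran from 20172 to 23050 in Chic, 16720 to 19138 in Fru, 15287 to 19182 in CGA and 12324 to 20858 in STL, against 15802 to 20268 in Ctr2 and 23425 to 25121 in Ctr1. On the arrays where the Mups were dim, Alb read 3 to 22, and no array listed it at 0. The part of liver RNA in the Mup values was not tested.

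**Figure D3:**
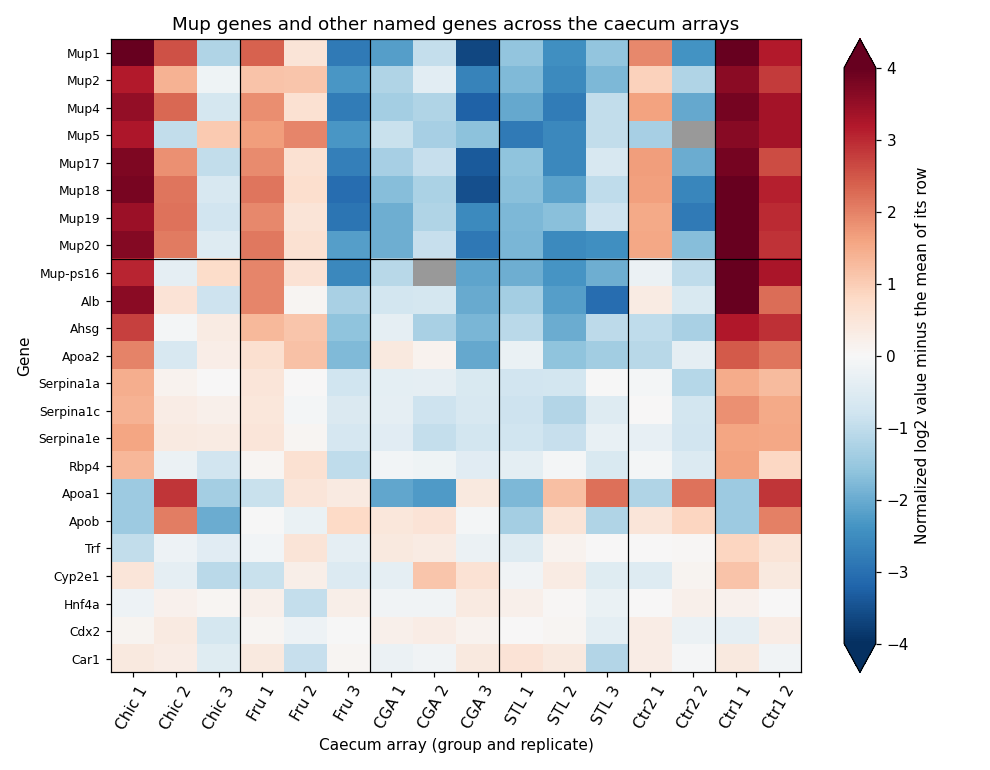
Normalized log2 value minus the mean of its row for the 8 Mup genes (above the line) and other named genes (below it) on each caecum array, in colours that saturate at 4 in either direction, with grey for values listed at or below 0. Alb (r = 0.925) and Ahsg (r = 0.910) share the Mup pattern, Apoa1 (r = -0.032) does not, and the epithelial genes Cdx2 and Car1 vary less.

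Tested across all genes, no plasma protein or hepatocyte gene was called in caecum in any of the 5 comparisons, in which 0% to 0.0265% of the 3779 genes were called. With so few calls over all genes, nothing is read from that. Between Fru and Ctr1, Serpina1c differed by -1.74 (SE 0.378, adjusted p = 0.354 in limma) and Alb by -2.92 (SE 1.14, adjusted p = 0.626). Between Ctr2 and Ctr1, Serpina1e differed by -2.11 (SE 0.425, adjusted p = 0.254) and Ahsg by -4.23 (SE 0.943, adjusted p = 0.395). Serpina1c and Serpina1e had the largest moderated statistics of the list in these 2 comparisons. Median differences of the 18 plasma proteins were -0.72 in Chic, -0.64 in Fru, -0.09 in CGA and -0.18 in STL against their controls, and -0.47 in Ctr2 against Ctr1.

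Of 9 measured genes that act on Mup transcription in liver, 0 had r above 0.8 with the mean Mup level, beside 12 of 3771 over all other genes, and their median r was 0.0049. Among them Hnf4a, a nuclear receptor of hepatocytes and gut epithelium, had r = -0.168, the glucocorticoid receptor Nr3c1 0.325, the cytokine signalling kinase Jak2 -0.128 and the STAT5 target Socs2 -0.489. Of 5 measured lipocalin and fatty acid binding relatives, 1 had r above 0.8, Rbp4, the plasma carrier of retinol, with 0.830 over the 16 arrays and 0.977 within the 6 bright ones. Fabp2, Fabp5 and Fabp6, which bind fatty acids or bile acids inside cells, had r of -0.447, -0.157 and -0.046. Among 5 measured male-biased liver genes other than Mups, Serpina1e followed the Mups (0.918) and Ces2e, a carboxylesterase, did not (0.270). Of the 2 female-biased ones, Prom1 had r = 0.278 and Hao2 0.091. Of the markers of other cells of the gut wall or its surroundings, 0 of 13 for enterocytes, 0 of 6 for Paneth cells, 0 of 6 for fat cells, 0 of 9 for smooth muscle and 0 of 7 for leukocytes had r above 0.8.

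The labels disagree on sex, which bears on a male-biased family. Source names and methods call all animals male, while a separate tag marks Fru 2, Fru 3 and all CGA and STL mice as female. The mean Mup level ran from 4.91 to 8.67 over the 8 arrays tagged female and from 6.13 to 11.8 over the 8 tagged male. All 6 arrays that were bright in deposited intensity carried the male tag, and Chic 3 and Ctr2 2 were tagged male and dim. Fru 2, tagged female and the array with the lowest median, had a mean Mup level of 8.67, above Chic 3 and Ctr2 2. Eif2s3y, a Y-linked translation factor gene, gave 452, 555 and 219 in Chic, 693, 56 and 403 in Fru, 492, 218 and 665 in CGA and 1064, 561 and 164 in STL, against 597 and 444 in Ctr2 and 763 and 309 in Ctr1. Its values in animals tagged female covered those in animals tagged male, and its r with the mean Mup level was -0.289. The tag and the diets cannot be told apart for CGA and STL, and its part in the Mup values was not tested.

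Mup20 was the 1 member with the same probe in all 3 tissue tables. In liver its intensity was 2539, 2659 and 2397 in Chic, 1383, 3142 and 2149 in Fru, 1814, 1533 and 1733 in CGA and 1463, 1603 and 1497 in STL, against 1563 and 2327 in Ctr2 and 1352 and 2322 in Ctr1. The highest liver value exceeded the lowest by 2.32-fold, while caecum values ran from 8, which cannot be told apart from background, to 3461. Ctr1 1, the brightest in caecum, had the lowest intensity in liver, on an array with a low median (717.5), and stood there above 68.1% of rows, within the range of 64.0% to 74.5% over all liver arrays. In ileum Mup20 ran from 2341 to 6931 and Mup5 from 283 to 1083. As deposited, Mup20 thus read higher in ileum than in liver for every group and number, on arrays whose medians differed. The values were closest in Ctr2 2, with 2341 and 2327 on arrays with medians of 813 and 1248. The liver table did not bear out its tissue label, since its 27 measured plasma proteins had a median at the 56.8th percentile of its rows. Spots of 1 probe differed by a median SD of 1.11 on the log2 scale in liver and 1.05 in ileum, against 0.165 in caecum. Gene names in the liver and ileum tables are therefore in doubt, Mup20 included.

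The liver row named Mup20 was not used to choose the family and was tested, although its name is in doubt. It differed by 0.26 between Chic and Ctr1 (SE 0.158, adjusted p = 0.896 in limma), by 0.02 between Fru and Ctr1 (adjusted p = 0.993), by 0.02 between CGA and Ctr2 (adjusted p = 0.998), by 0.19 between STL and Ctr2 (adjusted p = 0.999) and by -0.17 between Ctr2 and Ctr1 (SE 0.173, adjusted p = 0.9998). None passed the threshold, and nothing is read from that for Mup20, since the row may belong to another gene. In the same liver fits 1 of 4123 genes (0.0243%) was called for Chic, 1 (0.0243%) for Fru, 0 (0%) for CGA and 0 (0%) for STL against their controls, and 3 (0.0728%) for Ctr2 against Ctr1. Named after their values were seen, these were Snx10 in the comparisons with Ctr1, and Tbc1d10c and Usp48 beside it between the controls. Unadjusted p lay under 0.05 for 259 genes in CGA and 128 in STL.

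**Figure D4:**
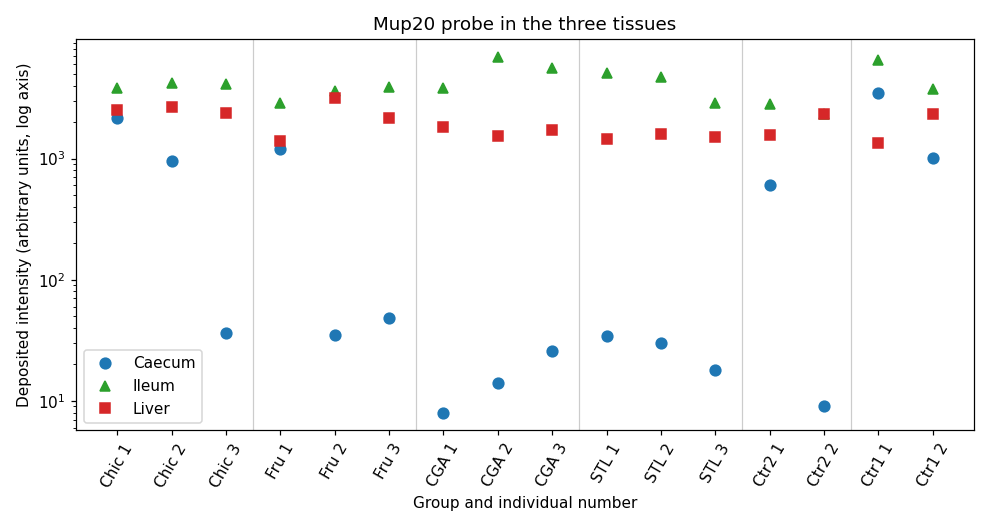
Deposited intensity of the Mup20 probe (arbitrary units, log axis) in caecum, ileum and liver, by group and individual number. Each point is 1 array, the caecum values span 8 to 3461, and the liver values stay between 1352 and 3142. The lowest caecum values cannot be told apart from background, and gene names in liver and ileum are in doubt, Mup20 included.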

How the data were processed

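RNA of caecum, liver and ileum cells was hybridised to one-colour Agilent 4x44K v2 arrays, 16 per tissue. The authors scanned them and deposited tables of whole-number intensity values per spot, which equalled the series' value table. Labels name Agilent Feature Extraction, the methods GenePix Pro and quantile normalization, but the deposited intensities still differed in median between arrays. Control rows (227 in caecum) were left out, values at or below 0 set missing, log2 intensities quantile normalized within a tissue, repeated spots combined, and each gene represented by its brightest probe on average. RefSeq updated 110 caecum symbols. Groups were compared with limma 3.58.1 in R 4.3.3 over all 6 groups with Benjamini-Hochberg adjustment, after tests on simulated data. The text names every Mup gene, the 10 genes most like them, and genes of fixed lists. Members and lists were chosen with earlier results of these data known. Replicate numbers name animals within a group and were not used as pairs. Alternatives covered normalization, filters, designs, and leaving out each array.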

Additional observations from a re-analysis of the deposited data

How the results depend on the processing

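No Mup gene was called in caecum, or Mup20 in liver, in any alternative that tested it or with any array left out. Nothing is read from that, since the caecum members were chosen on these values and the liver gene names are in doubt. Calls over all genes were also few, 0% to 0.0265% of 3779 in caecum and 0% to 0.0728% of 4123 in liver in the main fits. With dim genes left out, Mup18 and Mup19 were the only members tested in caecum. Of the 40 Mup differences in caecum, 17 took the opposite sign under at least 1 alternative: 6 for Chic with pooled controls, 10 for CGA and STL without Ctr2 1, and Mup5 for CGA. Mup5 against Ctr2 rested on 1 control array: for CGA it was -4.63 on deposited values, -4.13 at a common 75th percentile, -3.17 with pooled controls, -0.16 without CGA 1 and 0.74 with the replicate block. Leaving out each array in turn gave 0 to 40 caecum calls for Chic, 0 to 43 for Fru, 0 to 22 for CGA, 0 to 20 for STL and 0 to 38 for Ctr2 against Ctr1. Chic gave 1 call without dim genes and 2 without arrays of low median, a setting added after seeing the data. Fru gave 0 on deposited values, with only the groups compared, with pooled controls, with the replicate block and without arrays of low median. In liver, leaving out arrays gave 0 to 17 calls for Chic, 0 to 23 for Fru, 0 to 8 for CGA, 0 to 4 for STL and 0 to 24 between controls. Chic and Fru in liver gave 0 on deposited values, at a common 75th percentile, with only the groups compared, with pooled controls, with the replicate block and without arrays of low median. Liver Ctr2 against Ctr1 gave 0 on deposited values, at the 75th percentile, with only the groups compared and without arrays of low median, and 1 with every probe, a variance trend, the replicate block or values at or below 0 set to 1. The causes were not tested. Same-numbered caecum arrays had r of deviations between -0.401 and 0.659 (median 0.179, against -0.113 for arrays of different number), so pairing was not assumed, although array 1 had the highest mean Mup level in Chic, Fru, Ctr2 and Ctr1. Dim Mup intensities and 2 or 3 arrays a group limit every difference.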
